A study of Mus musculus with 58 samples.

Results

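A set of 10 genes that build the presynaptic active zone or prime vesicles there was followed through parvalbumin (PV) interneurons of the ventral subiculum of mice: Rims1, Rims2, Rims3, Bsn, Pclo, Erc1, Erc2, Unc13a, Unc13b and Unc13c. They were taken by name for their role at the active zone, and 10 of 10 were found among the 25648 genes of the count table. These neurons are inhibitory, and the cytosol of each was drawn into a patch pipette, so that each library was made from 1 patched cell. The cells carried the quality label Pass in 54 cases, 27 female and 27 male, and these fell into 4 pools by sex and postnatal day (P): female P40 (17 cells), female P42 (10), male P35 (14) and male P36 (13). All pools shared 1 genotype, PV-Cre::Ai9, in which Cre recombinase from the parvalbumin gene switches on the Ai9 red fluorescent reporter, so a cell is marked by present or past Pvalb expression. No other allele, agent or treatment is named. The series holds cells of 3 female and 4 male animals, but no cell is tied to an animal. Both female pools were of later age than both male pools, so that sex and age cannot be told apart, and p-values measure only the spread between pools.

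Vesicles fuse at the active zone, a protein mesh that holds docked vesicles close to calcium channels. RIM proteins (Rims genes) tie vesicle-bound Rab3 to calcium channels and to the priming factor Munc13 (Unc13 genes), which opens syntaxin for SNARE assembly. Bassoon (Bsn) and Piccolo (Pclo) are giant scaffolds of the same site, and ELKS (Erc1) and CAST (Erc2) are coiled-coil proteins that bind RIM, Bassoon and Piccolo. Fast-spiking PV terminals are known for tightly coupled, rapid GABA release, and the paralogs within each family are known from other synapses to be used in different mixtures.

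Total counts were 2.05 to 52.3 M per Pass cell, with a median of 11.5 M. Levels are given as CPM, the counts of a gene per M counts of the cell or pool, and RPKM is the same divided by the exon length of the gene in kilobases. Most cells carried the markers of their label: Gad1, which makes GABA, lay above the glutamate transporter Slc17a7 in 54 of 54 cells, and Pvalb was at 10 CPM or more in 47. Sst, a marker of another interneuron class, exceeded Pvalb in 14 cells, and Slc17a7 reached 10 CPM in 26. The summed excitatory neuron markers had medians of 139 and 107 CPM in female P40 and P42 cells and 173 and 92.7 CPM in male P35 and P36 cells, with Tbr1 at 0 in most cells of every pool. Markers of non-neuronal cells were present too. Summed oligodendrocyte markers had a median of 483 CPM and reached 12822 CPM in a male P36 cell. Summed microglia markers reached 8227 CPM and summed red blood cell markers 23053 CPM, both in female P40 cells. The summed PV interneuron markers had a median of 5883 CPM. The deepest cell, female P40 cell 3, gave 22.8% of the counts of its pool.

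The 3 Unc13 genes differed most in how many cells held them, and their promoters are shown here so that the starts of a widely and a rarely detected paralog can be compared (RefSeq, GRCm38.p6, 250 bases before to 50 after the start, 5′ to 3′ on the gene's strand). Unc13a lies at chr8:71671708-71672007 on the minus strand, Unc13b at chr4:43058703-43059002 on the plus strand and Unc13c at chr9:73968988-73969287 on the minus strand. The Unc13c window starts 22 bases beyond the end of the GENCODE vM21 gene given below, because RefSeq places the start farther upstream. Capitals mark each CG.
Unc13a: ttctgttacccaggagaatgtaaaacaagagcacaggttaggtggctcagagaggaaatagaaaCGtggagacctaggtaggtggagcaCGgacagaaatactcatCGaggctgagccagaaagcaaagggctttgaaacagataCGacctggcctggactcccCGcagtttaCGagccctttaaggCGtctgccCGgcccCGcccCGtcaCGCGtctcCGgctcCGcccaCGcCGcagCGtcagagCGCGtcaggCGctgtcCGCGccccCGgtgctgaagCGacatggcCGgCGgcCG
Unc13b: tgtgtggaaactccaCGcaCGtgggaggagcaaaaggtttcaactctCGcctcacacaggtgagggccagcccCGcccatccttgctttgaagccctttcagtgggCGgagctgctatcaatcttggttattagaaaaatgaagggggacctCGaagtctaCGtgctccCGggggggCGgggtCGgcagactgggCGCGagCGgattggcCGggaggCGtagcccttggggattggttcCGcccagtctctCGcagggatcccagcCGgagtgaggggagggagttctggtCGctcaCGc
Unc13c: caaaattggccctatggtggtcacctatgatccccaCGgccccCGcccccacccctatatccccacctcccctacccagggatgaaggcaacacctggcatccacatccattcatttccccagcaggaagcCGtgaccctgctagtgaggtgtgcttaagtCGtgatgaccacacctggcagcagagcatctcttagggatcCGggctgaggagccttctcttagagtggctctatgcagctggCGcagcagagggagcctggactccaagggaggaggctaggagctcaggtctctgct
These windows hold 27 CG in Unc13a, 20 in Unc13b and 6 in Unc13c. Of 32851 RefSeq promoters of this length, whose median is 7, 15.5% hold as many as Unc13a or more, 26.5% as many as Unc13b and 56.4% as many as Unc13c. The motif CG reads the same on both strands. Of the other members with an entry, Erc1 had 46, Bsn 38, Pclo 35, Erc2 31, Rims1 26 and Rims3 11. Promoter entries were matched for 9 of the 10 members, the exception being Rims2. The counts are descriptions of the sequence and carry no test against expression.

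Of the 10 genes, 8 were detected in every cell, although several of them ranged from near 0 to over 100 CPM. At least 1 count was present in 54 of 54 cells for Rims1, Rims2, Rims3, Bsn, Pclo, Erc1, Erc2 and Unc13a, in 52 for Unc13b and in 22 for Unc13c. Of all 14933 genes tested, 52.4% were detected in every cell. After each cell was thinned to 2.05 M counts, Rims3 was detected in 49 cells, Erc1 and Erc2 in 53 each, Unc13b in 44 and Unc13c in 9, while the other members remained at 54. Thus 5 of the 10 members were detected in every thinned cell, against 32.6% of all tested genes. A cell held between 3 and 9 of the 10 genes at 10 CPM or more: 9 genes in 10 cells, 8 in 19, 7 in 13, 6 in 6, 5 in 3, 4 in 2 and 3 in 1.

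**Figure D1:**
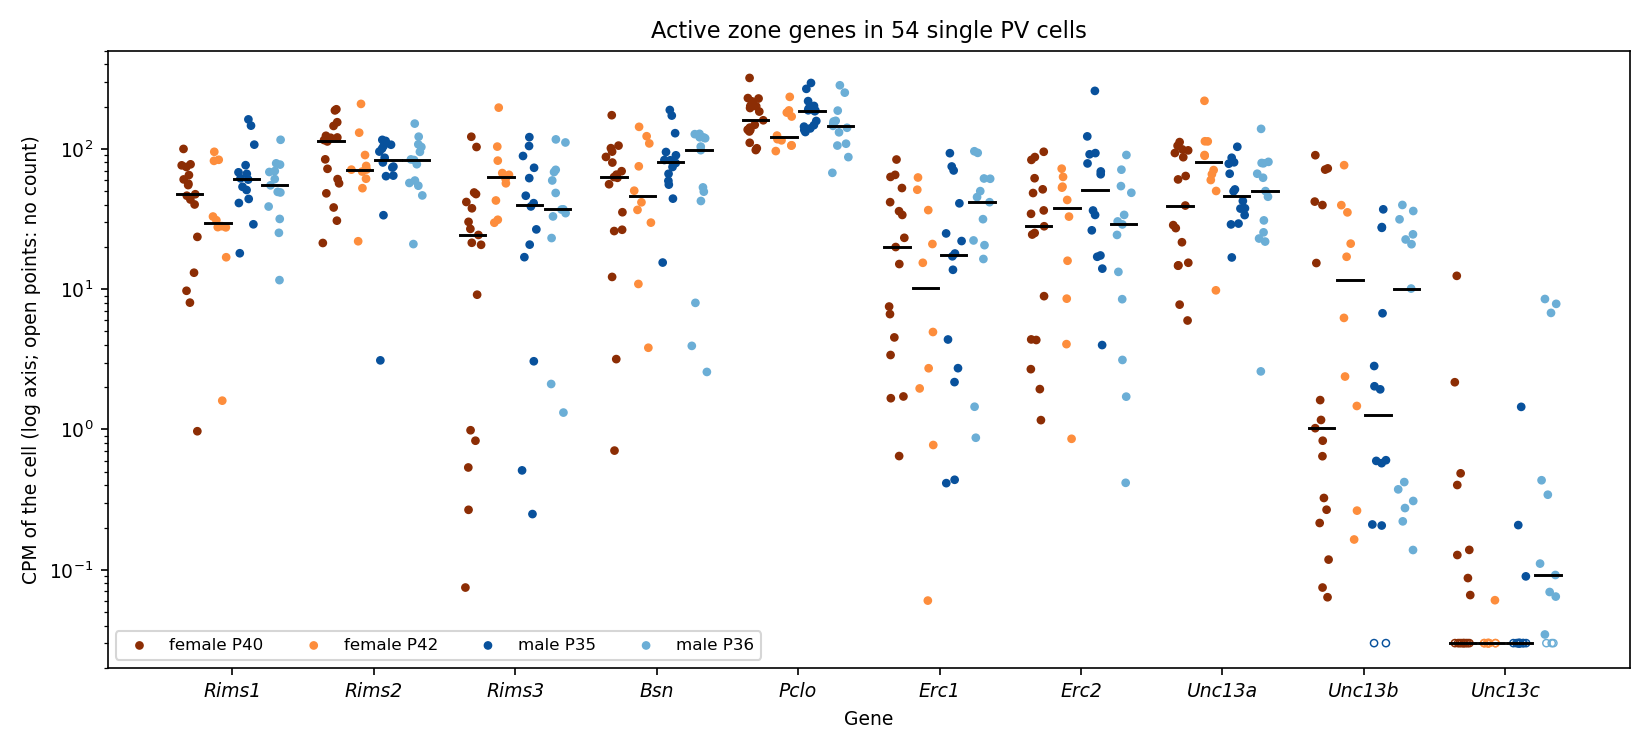
Level of each active zone gene in each of the 54 Pass cells, as CPM on a log axis, by pool; each point is 1 cell, bars are pool medians, and open points at the bottom are cells with no count. Pclo stays between 67.4 and 320 CPM in every cell, whereas Unc13b runs from no count to 90.1 CPM and Unc13c has no count in 32 cells.

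Per length, the members fell into an upper group and a sparse Unc13b and Unc13c. Over the 4 pools, Rims2 averaged 8.17 ± 1.31 RPKM, Rims1 7.60 ± 1.80, Pclo 7.51 ± 1.47 and Rims3 5.92 ± 2.0 (SD, n = 4). Unc13a averaged 4.58 ± 0.93 RPKM, Bsn 4.15 ± 1.12 and Erc2 4.02 ± 1.63. Neighbours within these 7 overlapped in their pool levels. Below them the pools no longer overlapped between neighbours: Erc1 averaged 1.87 ± 0.59 RPKM, Unc13b 0.722 ± 0.214 and Unc13c 0.072 ± 0.096, each lower than the gene before it in 4 of 4 pools. The median RPKM over cells was 4.33 for the median member, against 3.14 over 13700 tested genes with a length. The order among the upper genes, and the place of Erc1 below them, depend on which length is used. On coding length Rims3 led with a median of 41.5 RPKM over cells, because only 921 of its 7972 exon bases are coding. Rims2 followed with 17.3, Rims1 with 12.2 and Erc2 with 11.1. Erc1 had a median of 6.18 RPKM on coding length, above Bsn with 5.74.

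Among the RIM genes, no single paralog dominated. Rims1 (chr1:22286251-22805994) and Rims2 (chr15:39198261-39684372) encode long RIM proteins with a Rab3-binding end, while Rims3 (chr4:120854816-120896579) encodes a short RIM that lacks it. Rims1 had 0.971, 52.2 and 162 CPM in the lowest, median and highest cell. Rims2 had 3.11, 81.6 and 209 CPM, and all but 1 cell were at 10 CPM or more. Rims3 had 0.075, 38.3 and 197 CPM, with 43 cells at 10 CPM or more. The medians of the 3 genes thus lay closer together than the lowest and highest cell of any of them.

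As a share of the 3 genes per exon length, Rims2 made up a median of 36.8% per cell (SD 17.9, 54 cells), Rims1 33.0% (SD 16.2) and Rims3 26.8% (SD 18.1). Rims2 was the top paralog in 25 cells (46.3%, exact 95% interval 32.6 to 60.4%), Rims1 in 17 (31.5%, 19.5 to 45.6%) and Rims3 in 12 (22.2%, 12.04 to 35.6%); these intervals cover counting error only, take cells as independent draws and are too narrow where cells share an animal. The ranking moved with the length: on coding length Rims3 had a median share of 61.7% and led in 38 cells, and on the longest transcript Rims2 had 51.3% and led in 42. Without the 26 cells in which Slc17a7 reached 10 CPM, Rims2 lay above Rims1 in 14 of 28 cells, against 33 of 54 in all.

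The low end of Rims3 was shared unevenly between pools. In female P40 cells Rims3 had 0.075, 24.3 and 122 CPM (lowest, median and highest), and in female P42 cells 29.7, 63.2 and 197 CPM. Male P35 cells had 0.249, 39.9 and 121 CPM, and male P36 cells 1.32, 37.0 and 117 CPM. Rims3 was the top RIM gene in 0 of 17 female P40 cells and in 4 of 10 female P42 cells, against 3 of 14 male P35 and 5 of 13 male P36 cells. The pools of 1 sex thus differed from each other more than the sexes did.

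Both giant scaffolds were present in every cell, but Pclo was steady and Bsn was not. Pclo (chr5:14514918-14863459) had 67.4, 154 and 320 CPM in the lowest, median and highest cell, with a coefficient of variation (CV, SD over mean) of 0.333. Bsn (chr9:108096022-108190384) had 0.707, 67.8 and 189 CPM with a CV of 0.651, and 48 cells were at 10 CPM or more. Of the 14933 tested genes, 572 (3.83%) had a CV below that of Pclo; the median CV was 1.06, and CV fell as the mean rose across genes (Spearman rho = -0.91 over genes, which are not independent replicates).

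Per exon length, Pclo made up a median of 63.5% of the pair (SD 18.0, 54 cells) and lay above Bsn in 43 of 54 cells. The lowest Bsn value came from the deepest library: female P40 cell 3 held 37 Bsn counts in 52.3 M, or 0.707 CPM (exact Poisson 95% interval 0.498 to 0.974 CPM, counting error only), beside 228 CPM of Pclo. In that cell Rims3 was at 0.267 CPM, Rims2 at 155 and Unc13a at 105 CPM. Low values of Bsn and Rims3 were thus found in the library with the most counts. How much of their RNA was captured from that cell was not tested.

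**Figure D2:**
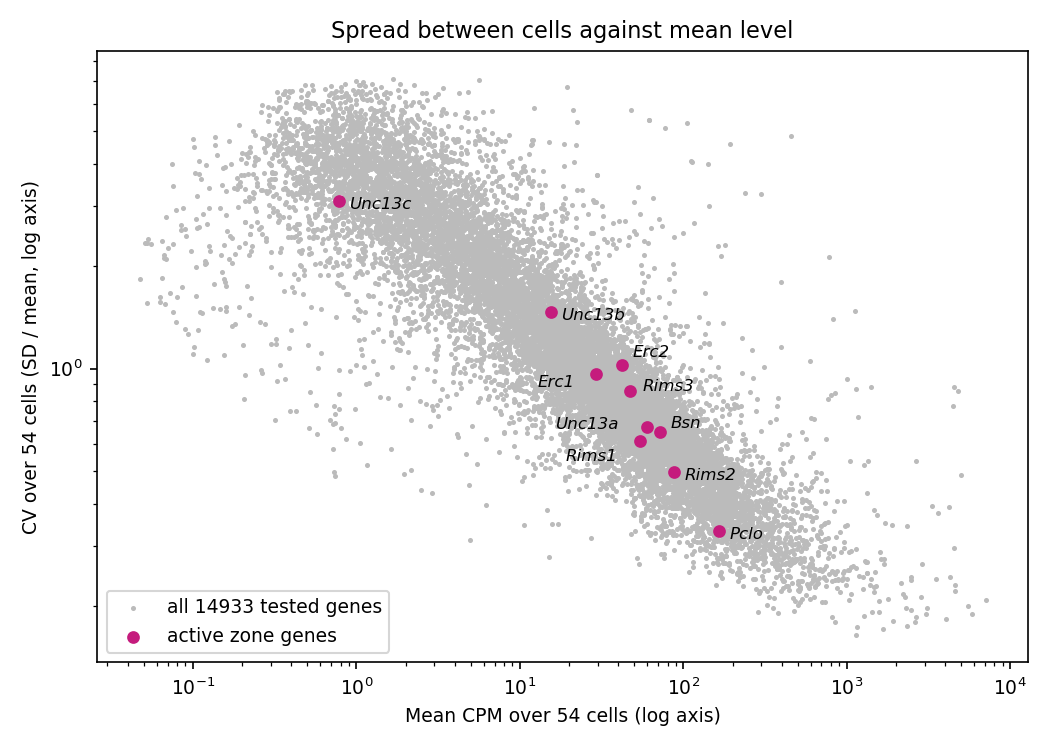
CV over the 54 cells against mean CPM, both on log axes, for the 14933 tested genes (grey) and the 10 active zone genes (coloured). The active zone genes lie within the cloud of genes of like mean level, with Pclo lowest at a CV of 0.333 and Unc13c highest at 3.11.

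ELKS and CAST transcripts varied over a wide range, and some cells held almost only 1 of them. Erc1 (chr6:119570796-119848167), which is widely expressed outside neurons too, had 0.060, 20.8 and 96.1 CPM in the lowest, median and highest cell. Erc2 (chr14:27622428-28478537), the more brain-restricted paralog, had 0.417, 33.3 and 259 CPM. Erc1 was at 10 CPM or more in 35 cells and Erc2 in 40.

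Per exon length, Erc2 made up a median of 72.4% of the pair, with a range of 1.65 to 99.9% (SD 28.3, 54 cells). Erc2 lay above Erc1 in 39 of 54 cells (72.2%, exact 95% interval 58.4 to 83.5%). This count was 37 on the longest transcript, 34 on coding length (interval 48.7 to 75.7%) and 31 with no length correction (43.2 to 70.8%), the last 2 intervals including an even split. On exon length, Erc2 held at least 90% of the pair in 15 cells and at most 10% in 4, leaving 35 cells between. By pool, Erc2 led in 13 of 17 female P40 and 8 of 10 female P42 cells, against 12 of 14 male P35 and 6 of 13 male P36 cells. The levels of the 2 genes were nearly unrelated across cells (Spearman rho = 0.06, 54 cells).

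Several members moved with cell-type markers, Erc2 with the largest rho. The rho of Erc2 with the summed PV interneuron markers was -0.52 over 54 cells, -0.43 within female and -0.58 within male cells. Gad1 had a median of 3560 CPM, beside a median of 5883 CPM for the whole sum. With the summed excitatory markers the rho of Erc2 was 0.44, 0.33 within female and 0.50 within male cells. Of single PV markers, Gad1 had a rho of -0.53 with Erc2, Kcnc2 -0.34, Pvalb -0.23, Tac1 -0.19 and Slc32a1 -0.18, while Erbb4, Kcnc1 and Gad2 were at -0.03, -0.03 and 0.01. Of the excitatory markers, Slc17a7 and Neurod2 were highest, both at 0.42. Bsn had a rho of 0.34 with the excitatory sum (0.39 within female and 0.28 within male cells), and Rims2 one of 0.30 with the summed astrocyte markers (0.40 within female and 0.10 within male cells). The highest Erc2 value, 259 CPM, was in male P35 cell 5, which also had the lowest Rims2 value, 3.11 CPM, a summed excitatory marker level of 1313 CPM and Sst at 165 CPM above Pvalb at 72.7 CPM. Without that cell the rho values were -0.51 and 0.41, and the highest Erc2 value was 123 CPM. These cells share their library chemistry and, in unknown groups, their animals, and the part of other cells' RNA in these levels was not tested.

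**Figure D3:**
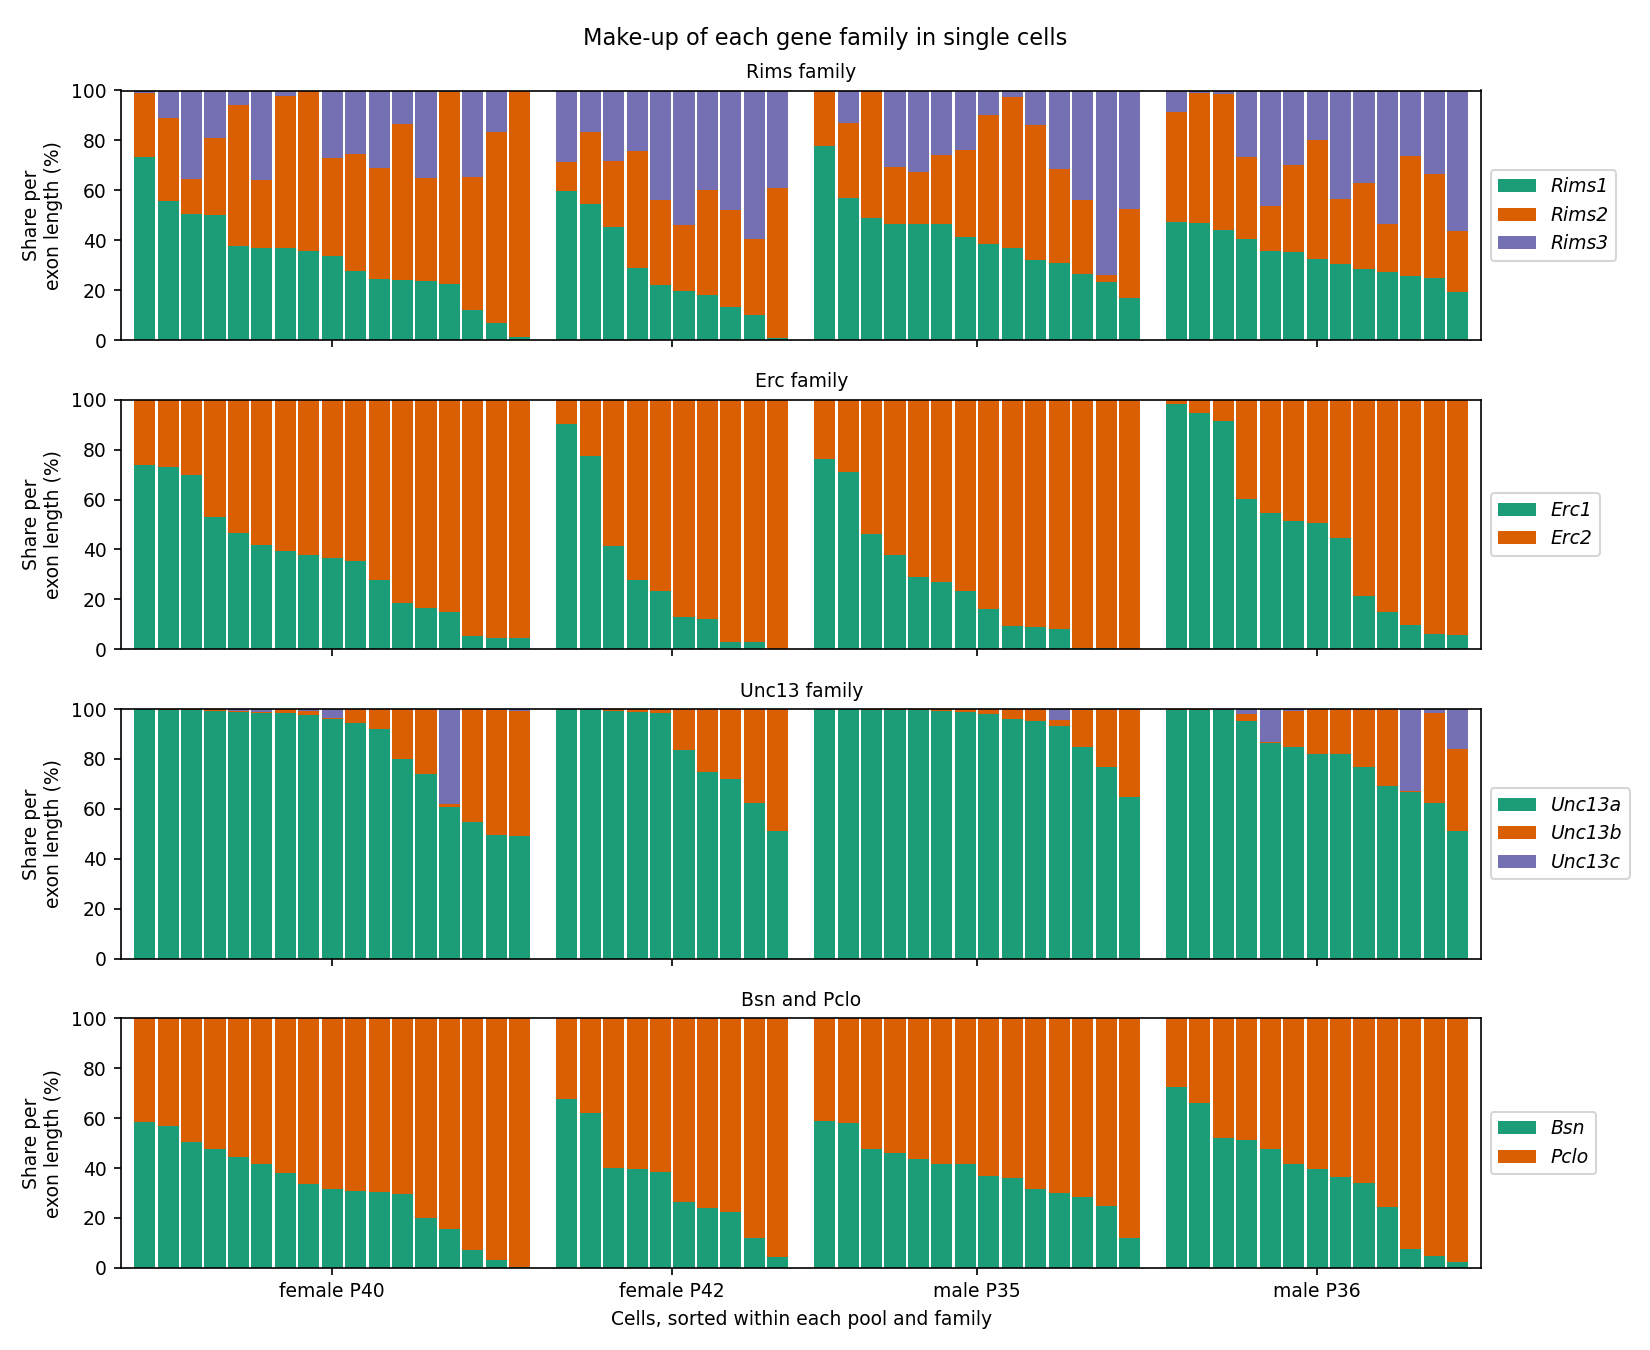
Share of each paralog in its family, per exon length and in percent, in each of the 54 cells; each bar is 1 cell, and cells are sorted within each pool and family. The RIM genes are mixed in most cells, Erc2 ranges from 1.65 to 99.9% of its pair, and Unc13a leads in 52 cells.

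Unc13a was the main priming gene in nearly all cells. Unc13a (chr8:71624417-71671757), the Munc13 paralog most used at forebrain synapses, had 2.59, 55.6 and 220 CPM in the lowest, median and highest cell, and 50 cells were at 10 CPM or more. It made up a median of 95.3% of the Unc13 genes per exon length and was the top paralog in 52 of 54 cells (96.3%, exact 95% interval 87.3 to 99.5%). The other 2 cells, both female P40, held Unc13b at up to 50.4% of the family. Unc13a led in 54 cells on coding length, in 50 on the longest transcript and in 47 with no length correction, where Unc13b led in 7 and reached 64.7%. Unc13a shares 495 exon bases with Colgalt1 on the opposite strand, which is also in the count table, and without a stated strand setting these reads cannot be told apart.

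Unc13b was high in some cells and near 0 in others. Unc13b (chr4:43058953-43264871), known as the paralog of a subset of hippocampal synapses, had 0, 1.78 and 90.1 CPM in the lowest, median and highest cell, with a CV of 1.47. It was at 10 CPM or more in 21 cells, from 1 to under 10 CPM in 10, above 0 but under 1 CPM in 21, and without a count in 2. The 21 cells at 10 CPM or more were 11 female and 10 male, and the 21 with a count but under 1 CPM were 10 female and 11 male, while both cells without a count were male. Median totals were 15.1 M counts in the 21 cells at 10 CPM or more and 12.2 M in the 21 with a count under 1 CPM. Median Unc13a was 50.1 CPM in the first set and 62.2 CPM in the second. For the 2 cells without a count, 3 counts would be 0.219 and 0.932 CPM. In 20 cells Unc13b made up 10% or more of the family. Its rho with Sst was -0.37 over 54 cells, -0.23 within female and -0.54 within male cells. With the summed markers of other interneurons, Sst among them, its rho had the opposite sign. That rho was 0.14 over 54 cells, 0.26 within female and 0.045 within male cells.

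Unc13c was barely present. Unc13c (chr9:73479422-73968966), best known from the cerebellum, had no count in 32 of 54 cells, where 3 counts would be 0.0573 to 1.24 CPM, and reached 1 CPM in 6 cells and 10 CPM in 1. The highest cell, female P40 cell 12, held 134 counts or 12.4 CPM (exact Poisson 95% interval 10.4 to 14.7 CPM), and 38.0% of its Unc13 family per exon length. The next cells were all male P36, at 8.50, 7.86 and 6.77 CPM. Unc13c had a rho of 0.47 with the summed oligodendrocyte markers (0.44 within female and 0.47 within male cells), and 0.48 over the 22 cells with a count. In the 3 male P36 cells that sum was 12822, 5322 and 1853 CPM, against a median of 483 CPM over all cells, whereas in female P40 cell 12 it was 763 CPM. With the summed red blood cell markers Unc13c had a rho of 0.32 (0.40 within female and 0.34 within male cells). With the summed astrocyte markers its rho was 0.03 (0.44 within female and -0.40 within male cells). With so few counts these rho values are descriptions, and the part of RNA from oligodendrocytes or other cells was not tested.

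Most pairs of the 10 genes had a small rho from cell to cell. Of 45 pairs, 40 had a rho between -0.25 and 0.25, and the median was 0.06 (log2(CPM + 1), 54 cells). The rho was positive for 33 pairs and negative for 12. No like count over pairs of all tested genes stands beside these, so they describe the members only. The highest was 0.41 between Rims1 and Pclo (0.33 after subtracting pool means), followed by Pclo with Unc13a at 0.34 (0.42) and Rims2 with Unc13a at 0.30. Erc1 with Unc13c had 0.32, but 0.11 in thinned cells. The lowest were Bsn with Unc13a and Rims1 with Unc13c, both at -0.18. The top paralogs formed 13 combinations over the 4 families per exon length; Rims2 with Erc2, Unc13a and Pclo was the top set in 14 cells, and Rims1 with the same partners in 13. The correlation (rho) of a member with total counts lay between -0.22 and 0.15. Against resting potential, membrane resistance and capacitance, whose units the labels do not state, 30 rho values over 49 cells lay between -0.29 (Bsn with resistance) and 0.21. Within 1 sex some were larger in size. Erc2 with resting potential had 0.08 within female and -0.41 within male cells. Bsn with resistance had -0.40 within female and -0.25 within male cells, and with capacitance 0.38 and 0.05.

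**Figure D4:**
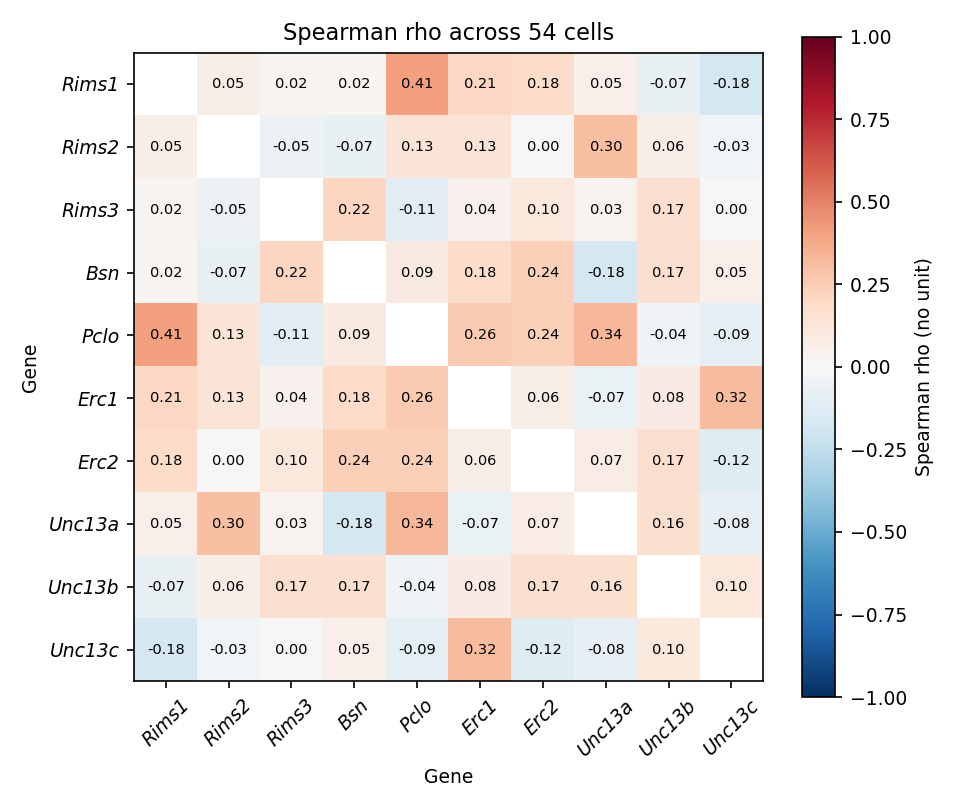
Spearman rho between each pair of active zone genes over the 54 cells, on log2(CPM + 1). Only 5 of 45 pairs reach 0.25 in size, with Rims1 and Pclo highest at 0.41.

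Over all tested genes, the gene nearest to each member had a rho of 0.52 to 0.69, where the nearest gene to any tested gene had a median rho of 0.55. Pclo lay nearest to Bicd1 (0.58), a dynein adaptor, and Rims3 to Dlgap4 (0.57), a postsynaptic scaffold, followed by Rab6a (0.53), a Golgi transport GTPase. Erc2 lay nearest to Gcdh (0.55), a mitochondrial dehydrogenase, Bsn to Rrp12 (0.53), a ribosome assembly factor, and Unc13a to Gosr1 (0.53), a Golgi SNARE. Rims1 lay nearest to Caps2 (0.54) and Erc1 to Dtwd2 (0.52), both of which had medians under 1 CPM. Unc13c lay nearest to Rassf2 (0.69) and Aspa (0.58), an enzyme of oligodendrocytes, both with medians under 1 CPM. These are orderings of 54 cells, with no test.

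Between the sexes, none of the 10 genes passed the test. The comparison, female minus male, was run with edgeR's quasi-likelihood test on the 4 pools and adjusted over all 14933 genes, of which it called 2 (0.0134%). It called 0 of 10 members; 0 members had an unadjusted p under 0.05, against 823 of all genes (5.51%), and DESeq2 also called 0 members, against 1.2% of all genes. Pools of the 2 sexes did not overlap for 4 of 10 members, Rims1, Erc1, Unc13a and Unc13b, against 33.9% of all tested genes, which is a like share. The log2 difference was negative for 7 members and positive for 3, with a median of -0.25, against 0.00 for all tested genes.

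Erc1 had the smallest p of the members. Its pools were at 25.6 and 19.8 CPM in females and 35.2 and 41.4 CPM in males, a log2 difference of -0.75 ± 0.38 (SE, adjusted p = 0.931, edgeR). The mean of Erc1 over cells was 27.09 CPM in female P40, 19.70 in female P42, 27.49 in male P35 and 41.71 in male P36 cells. Its medians over cells, in the same order, were 19.96, 10.18, 17.54 and 41.65 CPM. On means female P40 and male P35 nearly met, and on medians the sexes overlapped. Unc13a had 60.9 and 73.1 CPM in female and 50.7 and 46.8 CPM in male pools, a log2 difference of 0.46 ± 0.27 (adjusted p = 0.975, edgeR). In summed counts, both female Unc13a pools thus lay above both male pools without passing the test. The mean of Unc13a over cells was 52.58 CPM in female P40, 88.19 in female P42, 53.03 in male P35 and 54.27 in male P36 cells. On that measure only female P42 lay above the male pools. The log2 difference of Unc13a was 0.31 without the deepest cell and 0.22 with limma.

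Unc13b had 18.5 and 21.4 CPM in female and 10.01 and 15.7 CPM in male pools (log2 difference 0.64 ± 0.52, adjusted p = 0.984, edgeR). Rims1 had 52.4 and 43.8 CPM in female and 74.9 and 52.8 CPM in male pools (-0.41 ± 0.30, adjusted p = 0.983, edgeR), so that the closest pools of the 2 sexes nearly met, and without the male P35 pool the difference was -0.13. Bsn had 51.7 and 60.5 CPM in female and 92.3 and 59.9 CPM in male pools, a log2 difference of -0.44 ± 0.30 (adjusted p = 0.980, edgeR) with the male P35 pool alone standing above the others; without that pool it was -0.10.

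Erc2 had 31.2 and 33.5 CPM in female and 62.7 and 29.0 CPM in male pools (log2 difference -0.50 ± 0.42). Rims2 had 105 and 74.4 CPM in female and 81.0 and 79.2 CPM in male pools (0.16 ± 0.26), and Pclo 194 and 134 CPM in female and 200 and 147 CPM in male pools (-0.08 ± 0.25). Rims3 had 26.7 and 64.8 CPM in female and 44.9 and 52.3 CPM in male pools (-0.09 ± 0.44), and without the deepest cell its sign turned, to 0.03. Unc13c had 0.683 and 0.008 CPM in female and 0.034 and 1.81 CPM in male pools (-1.41 ± 2.34), with each sex holding 1 pool near 0. The adjusted p of these 5 genes was at least 0.984 (edgeR).

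**Figure D5:**
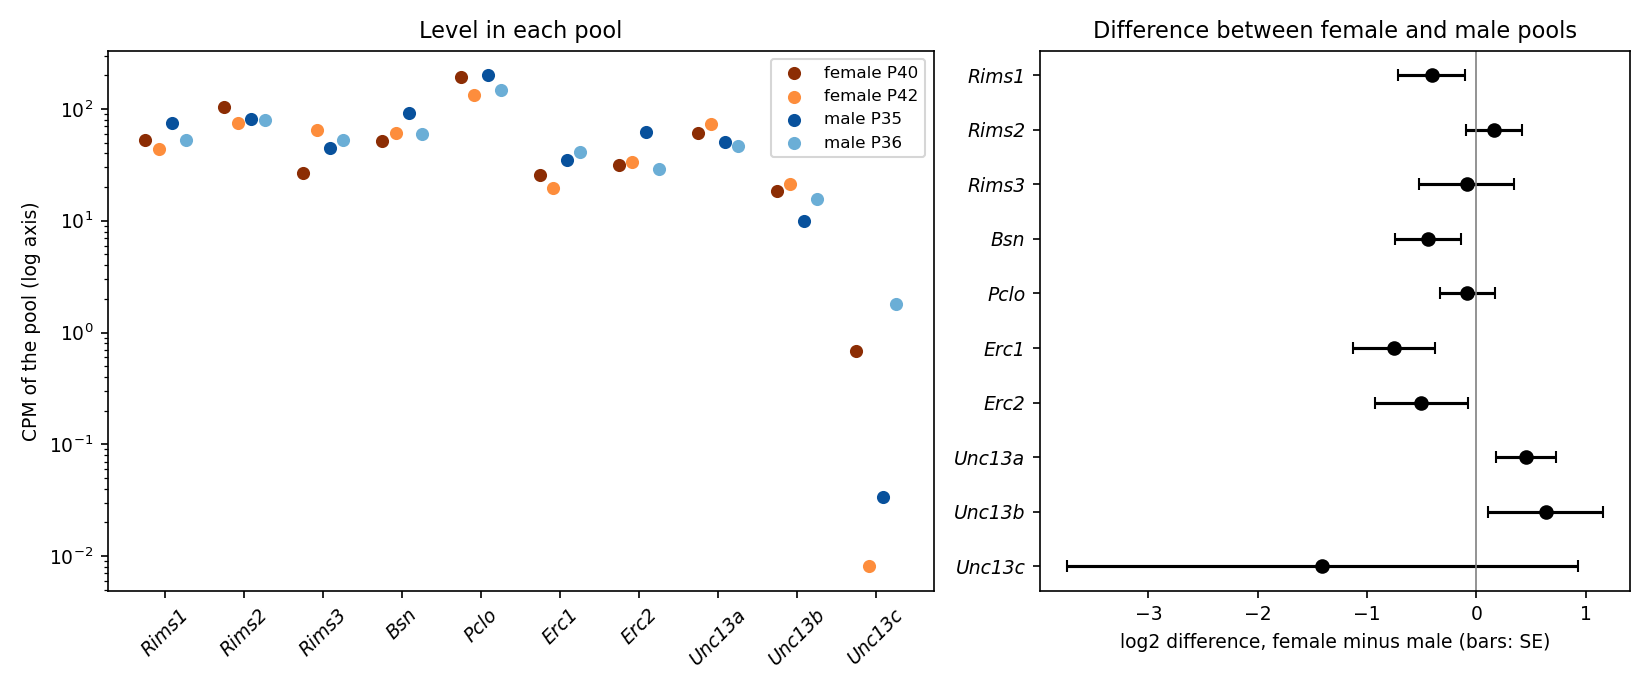
Left, CPM of each of the 4 pools on a log axis; right, log2 difference, female minus male, with its SE from edgeR. Erc1 has the largest difference in standard errors, -0.75 ± 0.38, and Unc13c the widest SE, 2.34.

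For each paralog, the shares of the female and male pools differed by less than the pools of 1 sex did. Each share was compared over the 4 pools with a two-sided exact permutation test of 6 assignments, which cannot go below p = 0.333. Rims2 made up 49.1 and 33.7% of the RIM genes in female P40 and P42 pools, against 33.1 and 35.7% in male P35 and P36 pools (difference 7.02 percentage points, exact p = 0.667). Rims3 made up 16.3 and 38.3% in female and 23.9 and 30.7% in male pools (difference 0.00, exact p = 1). Erc2 made up 67.1 and 73.9% of its pair in female and 74.9 and 54.0% in male pools (difference 6.06, exact p = 1). Unc13a made up 84.4 and 86.0% in female and 90.1 and 80.5% in male pools (difference -0.09, exact p = 1), and Bsn 27.3 and 38.9% of its pair in female and 39.4 and 36.5% in male pools (difference -4.89, exact p = 0.667).

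The wider release machinery spanned a broad range of levels. Of 49 listed genes 47 were tested, with a median level of 9.50 RPKM over cells, and 41 were detected in every cell. Among the top 6 were Cplx1 (1145 RPKM), a complexin that clamps and triggers fusion, Snap25 (824), a SNARE, Rab3a (722), the vesicle GTPase that RIM binds, Vamp2 (273), the vesicle SNARE, and Napa (195), a SNARE recycling adaptor. Rims2, the highest of the 10 active zone genes by median RPKM, stood at 7.85 RPKM, and 22 of the 47 listed genes lay below it. These included the liprin scaffolds Ppfia1 (1.32 RPKM), Ppfia2 (4.10) and Ppfia3 (3.85), the RIM-binding protein gene Rimbp2 (0.904) and Rims4 (4.96), a short RIM. Of the 47 genes edgeR called 0, against 0.0134% of all genes; 3 (6.38%) had an unadjusted p under 0.05, against 5.51% of all genes. Of the differences 34 were negative (72.3%) and 13 positive, against 49.5% negative among all genes. The median was -0.13 on the log2 scale, and pools did not overlap for 15, against 33.9% of all tested genes.

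The 4 smallest p values were those of Sv2b, Cadps2, Lin7a and Doc2a. Sv2b, a vesicle glycoprotein of mainly excitatory terminals, had 11.3 and 7.20 CPM in female and 54.2 and 52.5 CPM in male pools (log2 difference -2.53 ± 0.41, edgeR adjusted p = 0.369). Cadps2, a dense-core vesicle priming factor, had 5.56 and 0.927 CPM in female and 44.8 and 31.9 CPM in male pools (-3.56 ± 0.84, edgeR adjusted p = 0.878). DESeq2 called these 2 genes of the list, against 1.2% of all genes, with adjusted p of 1.64e-06 for Sv2b and 0.000115 for Cadps2.

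Across cells, Sv2b had a rho of 0.56 and Cadps2 of 0.54 with the summed excitatory markers. Male P36 cell 13 and male P35 cell 10 gave 42.5% of the male Sv2b counts and 54.4% of the male Cadps2 counts, and had excitatory marker sums of 1238 and 789.5 CPM. The part of excitatory RNA in both differences was not tested. Lin7a, a scaffold partner of CASK, had 16.8 and 20.7 CPM in female and 41.7 and 30.4 CPM in male pools (log2 difference -0.94 ± 0.40, edgeR adjusted p = 0.905). Doc2a, a calcium sensor of release, had 22.4 and 24.1 CPM in female and 41.6 and 39.1 CPM in male pools (-0.79 ± 0.35, edgeR adjusted p = 0.909).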

How the data were processed

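Cytosol of single PV cells was drawn by patch pipette and made into Nextera XT libraries, per the labels' protocols. The submitters' processing notes name STAR, GRCm38 and edgeR. No version, counting tool, strand setting or captured part of the transcript is named in those notes or labels. The authors deposited whole-number counts, not normalized, for 25648 genes in 58 cells. The authors also deposited a normalized signal, which equals the count times 1 factor per cell (0.866 to 1.32) and was used only as an alternative. All columns matched a labelled cell (0 unmatched), and no cells were identical (0 pairs).

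Counts of Pass cells were summed into 4 pools, because no label ties cells to animals; the pools are independent only if each animal was used at 1 age. Cells were not used as replicates of a condition, and values over cells carry no test. Genes with a count in at least 10 cells that passed edgeR's filterByExpr, 14933 in all, were fitted with edgeR 4.0.16 (R 4.3.3; TMM, quasi-likelihood F test, two-sided, Benjamini-Hochberg adjusted p under 0.05). The CPM of a pool used its total times the TMM factor. SE is the absolute log2 difference over the square root of F. The fit was tested on simulated counts. Exon, coding and longest-transcript lengths come from GENCODE vM21 on GRCm38, for 87.5% of genes. Correlations are Spearman's on log2(CPM + 1). Shares of cells carry exact (Clopper-Pearson) 95% intervals, which cover counting error only, take cells as independent draws and are too narrow where cells share an animal.

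Alternatives were DESeq2 1.42.0, limma 3.58.1, RLE scaling, other filters, other lengths, thinning to the smallest total, the deposited normalized signal, omission of cells rich in Slc17a7 or Sst, and omission of each pool. The longest transcript and the omission of the deepest cell and of the cell with most Unc13c counts were chosen after seeing the data. The members, the release machinery list and the marker lists were chosen with earlier results of these data known. The members were all named; from the release list the 4 with the smallest p and genes among the 6 with the highest level were named, and, of the 2 genes nearest to each member by rho (gene models left out), those with a gene name and a value that describes the member. Cells named by number were picked once their values were known. Some results are left out of the text, though all fits and counts include the genes behind them. The neurexin isoform table was not used here.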

Additional observations from a re-analysis of the deposited data

Results flagged for a closer look

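All 10 genes were also counted in the 4 cells labelled Fail, which enter no comparison. Their totals were 0.836, 0.596, 0.545 and 5.08 M counts. Summed over these cells, the scaffold genes held 118 counts of Rims1, 135 of Rims2, 140 of Rims3, 215 of Bsn, 985 of Pclo, 204 of Erc1 and 235 of Erc2. The priming genes held 384 counts of Unc13a, 18 of Unc13b and 5 of Unc13c, each above the limit of 3 counts. Fail cell 4 gave 642 of the 985 Pclo counts, and in Fail cell 3 Erc1 with 57 counts lay above Pclo with 41. A pair of values lay outside the range of the Pass cells: Erc1 at 104 CPM in Fail cell 3, above the highest Pass cell at 96.1 CPM, and Rims2 at 0.985 CPM in Fail cell 4, below the lowest Pass cell at 3.11 CPM.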

How the results depend on the processing

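No paired analysis was possible because the labels give no replicate numbers shared between the pools. The count of members called between the sexes was 0 in edgeR, with 0 at an unadjusted p under 0.05, and also 0 under RLE scaling, DESeq2, limma, both other filters, thinning, and omission of each pool or of the deepest cell; with 1 pool left out, the lone pool is assumed to vary like the others. Over all tested genes edgeR called 2 and DESeq2 179. The signs of the log2 differences of Rims1, Bsn, Erc1, Unc13a and Unc13b held in these, but with 1 pool left out their sizes ran from -0.64 to -0.13, -0.72 to -0.10, -0.94 to -0.57, 0.33 to 0.59 and 0.35 to 0.997; without the deepest cell Bsn was at -0.26. For Rims3 the log2 difference turned to 0.0749 with limma, 0.15 in thinned cells, 0.0306 without the deepest cell and 0.0814 without the cell with most Unc13c counts; the cause was not tested. With 1 pool left out, log2 differences ran from -0.10 to 0.40 for Rims2, -0.85 to 0.42 for Rims3, -0.36 to 0.17 for Pclo, -0.95 to 0.16 for Erc2 and -6.67 to 3.32 for Unc13c.

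Likewise, share differences in percentage points ran from -0.65 to 14.7 for Rims2, -10.99 to 10.99 for Rims3, -4.38 to 16.5 for Erc2, -4.85 to 4.66 for Unc13a, -0.88 to 4.25 for Unc13b, -3.78 to 0.60 for Unc13c and -0.87 to 10.6 for Pclo. On coding length the Rims3 share difference was -2.90, and the median share over cells was 15.3% for Rims1 and 61.7% for Rims3. Detection depended on the level asked for: Erc1 was at 10 CPM or more in 35 cells, Unc13b at 1 CPM in 31 and at 10 CPM in 21, and Unc13c at 1 CPM in 6, at 10 CPM in 1 and with a count in 9 thinned cells. Median CPM of each member kept within its spread between cells under all alternatives. This is a loose limit, because that spread is wide: Rims3 ran from 0.075 to 197 CPM over cells. It does not show how far a median moved. Counts of amplified reads without molecular identifiers are not independent molecules, and the 4 pools limit the test between the sexes.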
